A study of Mus musculus with 2 samples.

Results

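The 43 enzymes of glycolysis and the tricarboxylic acid (TCA) cycle described here were chosen by name, and each of the 43 had a row in the gene tables, of 43346 mouse genes in all. RNA was taken from the midbrains of 2 newborn B6NCrl mice (a C57BL/6N line, postnatal day 0), with no genotype change and no treatment. Pup 1 is replicate 1 and pup 3 is replicate 2, each library holds the RNA of 1 whole midbrain, sex was not collected, and the labels give both pups the same donor record. From each midbrain 13 pg of RNA over 200 nucleotides, described as 1 cell-equivalent, was amplified with a SMART-type protocol, so each library samples RNA of a tissue, whatever the assay name in the labels (single-cell RNA-seq). The pups are replicates of 1 group. No condition was set against another, and no test across animals was possible.

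Glycolysis splits glucose into pyruvate in the cytosol. Lactate dehydrogenase turns pyruvate into lactate, whereas the pyruvate dehydrogenase complex makes acetyl-CoA from it inside the mitochondrion, where the TCA cycle oxidises the acetyl group. Many steps have several isoenzymes encoded by separate genes, and in brain these are known to differ between neurons and glia, between fetal and adult tissue, and between cytosol and mitochondrion.

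Total expected counts were 26583225 in pup 1 and 33142647 in pup 3, of which the 43 enzymes took 1.37% of gene counts in pup 1 and 1.32% in pup 3. At this depth the floor of 3 counts equals 0.115 CPM in pup 1 and 0.0926 CPM in pup 3. Of the midbrain markers, Th, Slc17a6, Pou4f1 and Gata3 were detected in both pups, Otx2 in pup 1 alone, and En1 stayed under 1 TPM in both (TPM is a count per transcript length, scaled to the same total in each library). All 5 Hox genes of hindbrain and cord had 0 counts. All 5 neuron markers were detected in both pups, with a summed TPM of 10906 in pup 1 and 7630 in pup 3. For radial glia and astrocytes 5 of 6 markers were detected, summing to 2218 TPM in pup 1 and 2685 in pup 3, with Gfap at 0 counts in both and Aldoc, itself one of the 43 enzymes, on the list. Markers of meninges (4 of 4) summed to 2889 TPM in pup 1 and 3938 TPM in pup 3, and those of red blood cells (4 of 4) to 1703 TPM in pup 1 and 2860 TPM in pup 3. Lower sums came from the oligodendrocyte lineage (4 of 5 in both pups, 107.3 TPM in pup 1 and 103.4 TPM in pup 3), microglia (2 of 5 in both pups, 58.4 TPM in pup 1 and 76.5 in pup 3, Tmem119 at 0 counts) and endothelium (2 of 4, 150.4 TPM in pup 1 and 125.2 TPM in pup 3). Of 4 skeletal muscle markers Acta1 alone was detected, at 25.8 TPM in pup 1 and 35.0 TPM in pup 3, with Myh3 at 0 counts, and of 3 liver markers Apoa1 alone.

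With detection set at a TPM of 1 or more, 38 of the 43 enzymes were detected in both pups, against 17.0% of all mouse genes. Dlat and Pdk2 were detected in pup 1 alone and Suclg2 in pup 3 alone. Hk2 and Pdk3 had 0 counts in both pups. The mean over both pups reached 100 TPM for 27 enzymes, and it was highest for Gapdh (1287 ± 251 TPM, SD, n = 2), Eno1 (1015 ± 218 TPM) and Aldoa (888 ± 529 TPM). On transcripts annotated as protein-coding alone, Eno1 (1005 ± 214 TPM) and Aldoa (872 ± 514 TPM) came before Gapdh (791 ± 110 TPM). In RNA of a whole tissue, fewer cells of a type and less RNA per cell cannot be told apart, which holds for every level given here.

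**Figure D1:**
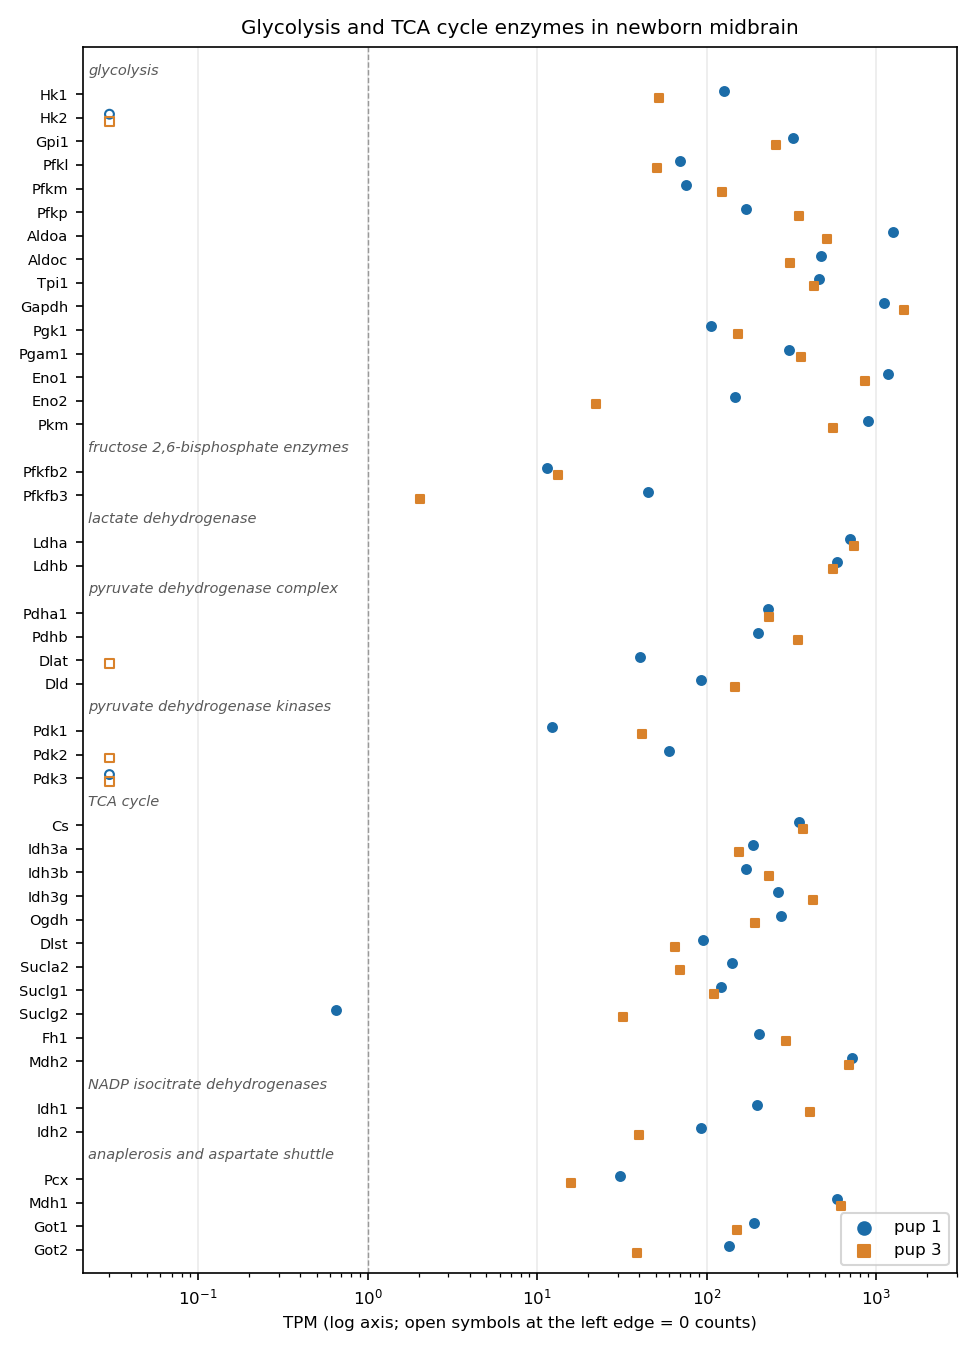
TPM of each of the 43 enzymes in pup 1 (circles) and pup 3 (squares) on a log axis, grouped by role, with the detection limit of 1 TPM dashed and genes at 0 counts as open symbols at the left edge. Most enzymes lie near or above 100 TPM in both pups, while Hk2 and Pdk3 are at 0 counts in both, Dlat and Pdk2 are at 0 counts in pup 3, and Suclg2 is under 1 TPM in pup 1.

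Of the hexokinase genes Hk1, Hk2, Hk3 and Hkdc1, whose products trap glucose as glucose 6-phosphate, only Hk1 was detected. Hk1, the hexokinase that binds mitochondria and prevails in adult brain, had 126.1 TPM in pup 1 and 52.6 TPM in pup 3. Hk2, the hexokinase known from muscle, fat and tumours, had 0 counts in both pups, where 3 counts would have read as 0.0817 TPM in pup 1 and 0.0585 TPM in pup 3. Set against that floor, Hk1 was 1542-fold higher than Hk2 in pup 1 and 899-fold higher in pup 3. The deposited TPM interval of Hk2 reaches 0.675 TPM in pup 1 and 0.491 TPM in pup 3. Both lie above the floor, so these folds are not strict lower bounds. Hk3 and Hkdc1, outside the 43 enzymes, also had 0 counts in both pups. Gpi1, which turns glucose 6-phosphate into fructose 6-phosphate, had 324.8 TPM in pup 1 and 256.4 TPM in pup 3.

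Phosphofructokinase commits sugar to glycolysis, and its platelet-type subunit Pfkp was the most abundant of the 3 subunits by gene-level TPM. Pfkp had 170.6 TPM in pup 1 and 349.2 TPM in pup 3, Pfkm (muscle type) 76.0 TPM in pup 1 and 122.8 TPM in pup 3, and Pfkl (liver type) 70.1 TPM in pup 1 and 51.2 TPM in pup 3. Pfkp therefore made up 53.9% of phosphofructokinase TPM in pup 1 and 66.8% in pup 3, a mean of 60.3% ± 9.11 (SD, n = 2). Much of this lay on transcripts that do not encode the enzyme: protein-coding transcripts carried 47.0% of Pfkp TPM in pup 1 and 32.6% in pup 3, and the leading transcript in pup 3 was a retained-intron RNA of 702 bases. On protein-coding transcripts alone Pfkp had 80.2 TPM in pup 1 and 113.7 TPM in pup 3, against 76.0 TPM in pup 1 and 122.8 TPM in pup 3 for Pfkm, so that the order of the pair differed between the pups. Exons of Pfkp share 748 bases with Pitrm1 on the opposite strand, and whether counting used strand is not given in the sources used here. Pitrm1 had 20.3 TPM in pup 1 and 8.18 TPM in pup 3.

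The enzymes that set the level of fructose 2,6-bisphosphate, the activator of phosphofructokinase, were scarce and did not keep one order. Pfkfb3, the form with the strongest kinase activity, had 45.3 TPM in pup 1 and 2.04 TPM in pup 3. Pfkfb2, best known from heart, had 11.5 TPM in pup 1 and 13.3 TPM in pup 3. Pfkfb3 was thus 3.94-fold higher than Pfkfb2 in pup 1, while in pup 3 Pfkfb2 was 6.54-fold higher than Pfkfb3. In pup 3, 99.0% of Pfkfb2 TPM lay on a retained-intron transcript of 3057 bases, and with protein-coding transcripts alone Pfkfb3 exceeded Pfkfb2 in both pups (45.3 against 6.84 TPM in pup 1, 1.99 against 0.14 TPM in pup 3). Pfkfb1 and Pfkfb4, the other genes of the family, stayed under 1 TPM in both pups.

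Aldolase cleaves fructose 1,6-bisphosphate, and the ubiquitous form Aldoa exceeded Aldoc, the brain form found in astrocytes and radial glia. Aldoa had 1262 TPM in pup 1 and 514.2 TPM in pup 3. Aldoc had 469.8 TPM in pup 1 and 311.8 TPM in pup 3. The Aldoa to Aldoc ratio was 2.69 in pup 1 and 1.65 in pup 3, a mean log2 ratio of 1.07 ± 0.50 (SD, n = 2). Aldoa held 72.9% of the summed TPM of the pair in pup 1 and 62.3% in pup 3. A non-coding transcript of 706 bases held 0.33% of Aldoc TPM in pup 1 and 22.6% in pup 3. On protein-coding transcripts alone the log2 ratio of Aldoa over Aldoc was 1.40 in pup 1 and 1.08 in pup 3.

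The middle steps differed between the pups by 1.62-fold or less in scaled counts. Tpi1, which interconverts the triose phosphates, had 462.0 TPM in pup 1 and 432.4 TPM in pup 3. By scaled counts Tpi1 was 1.19-fold higher in pup 3, the opposite direction to TPM. A coding transcript of 802 bases held 22.7% of Tpi1 TPM in pup 1 and 0.22% in pup 3. Gapdh, which oxidises glyceraldehyde 3-phosphate, had 1109 TPM in pup 1 and 1464 TPM in pup 3, and a non-coding transcript of 483 bases held 32.2% of that in pup 1 and 40.6% in pup 3. Pgk1, the first ATP-forming enzyme of the pathway, had 106.2 TPM in pup 1 and 153.6 TPM in pup 3. Pgam1, the phosphoglycerate mutase of brain, had 308.0 TPM in pup 1 and 359.7 TPM in pup 3, while the muscle form Pgam2 and the germ-cell kinase Pgk2 had 0 counts in both.

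Several of these genes have near-identical copies in the genome that can take reads from them. Gapdh had 85 copies of at least 95% identity over 200 bases or more, 25 of them at 1 TPM or more, and together they held 1033 counts in pup 1 and 2054 in pup 3, equal to 5.79% of the Gapdh counts in pup 1 and 6.62% in pup 3. For Pgk1 the share was 9.80% in pup 1 and 15.4% in pup 3, for Eno1 1.85% in pup 1 and 2.32% in pup 3, and for Pgam1 2.07% in pup 1 and 1.16% in pup 3. The levels of these 4 genes are uncertain to the extent that counting split reads between a gene and its copies.

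Enolase makes phosphoenolpyruvate, and at birth the widely expressed Eno1 far exceeded Eno2, the neuron-specific enolase used as a marker of mature neurons. Eno1 had 1169.5 TPM in pup 1 and 861 TPM in pup 3. Eno2 had 146.8 TPM in pup 1 and 22.2 TPM in pup 3. The Eno1 to Eno2 ratio was 7.97 in pup 1 and 38.7 in pup 3, a mean log2 ratio of 4.13 ± 1.61 (SD, n = 2). Eno1 exceeded Eno2 in both pups, and the spread of the ratio came mainly from Eno2, whose scaled count was 6.37-fold higher in pup 1 than in pup 3 (exact Clopper-Pearson 95% interval 5.96 to 6.82, counting error only). The transcript also differed: a transcript of 2795 bases carried 67.3% of Eno2 TPM in pup 1 and 0% in pup 3, while one of 2386 bases carried 8.80% in pup 1 and 83.8% in pup 3, and their coding sequences are not identical. The summed neuron markers were also higher in pup 1 (10906 TPM, against 7630 TPM in pup 3), through Tubb3 (5927 TPM in pup 1, 1794 TPM in pup 3), whereas Stmn2, Snap25 and Gap43 were lower in pup 1. Their part in the Eno2 difference was not tested. The muscle enolase Eno3 stayed under 1 TPM in both pups, and Eno4 had 0 counts.

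Pyruvate kinase ends glycolysis, and the Pkm gene makes a constitutively active M1 form, typical of adult brain and muscle, and a regulated M2 form, typical of embryonic and dividing cells, by choosing between exclusive exons. Pkm had 901 TPM in pup 1 and 557 TPM in pup 3, and Pklr, the liver and red-cell gene, had 0 counts in both. The exons, each of 167 bases, lie at chr9:59675029-59675195 (M1) and chr9:59675568-59675734 (M2) on the plus strand of GRCm38, the assembly also named mm10, with 372 bases between them. They are shown because the share of each form rests on them, read from the GENCODE M21 transcripts 5′ to 3′, with capitals at the 64 positions where the exons differ when aligned without gaps, 103 positions (61.7%) being the same.
Pkm M1 exon: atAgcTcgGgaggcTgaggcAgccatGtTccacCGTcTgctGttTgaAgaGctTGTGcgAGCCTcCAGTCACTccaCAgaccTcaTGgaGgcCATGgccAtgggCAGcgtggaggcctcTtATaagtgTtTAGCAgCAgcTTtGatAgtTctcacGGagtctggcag
Pkm M2 exon: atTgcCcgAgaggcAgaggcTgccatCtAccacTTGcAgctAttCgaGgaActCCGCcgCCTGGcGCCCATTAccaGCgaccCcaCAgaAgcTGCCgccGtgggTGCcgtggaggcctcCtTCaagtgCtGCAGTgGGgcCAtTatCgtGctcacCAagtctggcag
The remaining coding sequence of the 2 transcripts is identical, and both deposited transcripts are 2432 bases long, so their shares depend on reads that reach this exon. The M1 transcript carried 78.9% of Pkm TPM in pup 1 and 71.1% in pup 3, and the M2 transcript 21.1% in pup 1 and 28.9% in pup 3, a mean M2 share of 25.0% ± 5.54 (SD, n = 2). In TPM, M1 had 710.6 in pup 1 and 395.6 in pup 3, and M2 had 190.3 in pup 1 and 161.2 in pup 3. M1 led in both pups, and the M2 level varied less between them than the M1 level.

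**Figure D2:**
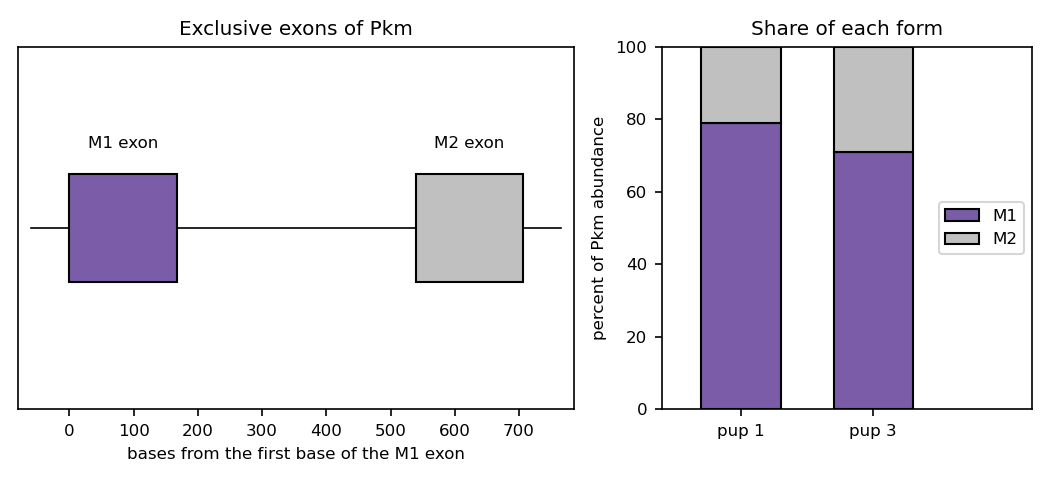
Left, the M1 and M2 exons of Pkm drawn to scale, in bases from the first base of the M1 exon. Right, the percent of Pkm abundance on the M1 and the M2 transcript in each pup, where M2 takes 21.1% in pup 1 and 28.9% in pup 3.

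Lactate dehydrogenase was present in both subunits at nearly balanced levels. Ldha, the subunit associated with lactate production, had 701 TPM in pup 1 and 737 TPM in pup 3. Ldhb, associated with lactate oxidation and with heart and neurons, had 588 TPM in pup 1 and 555 TPM in pup 3. Ldha held 54.4% of their sum in pup 1 and 57.0% in pup 3, and the mean log2 ratio of Ldha over Ldhb was 0.33 ± 0.11 (SD, n = 2). The deposited TPM intervals of both genes did not overlap in either pup, though each belongs to 1 library and does not cover the spread between pups. The testis form Ldhc had 0 counts in both. Of the carriers that move pyruvate and lactate, the mitochondrial pyruvate carrier subunits Mpc1 (497.5 TPM in pup 1, 729 TPM in pup 3) and Mpc2 (110.6 TPM in pup 1 and 353.6 TPM in pup 3) were detected in both, and the lactate transporter Slc16a1 was listed over 4-fold higher in pup 3, with 15 counts in pup 1 and 2121 in pup 3.

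The pyruvate dehydrogenase complex was detected with all 4 subunits in pup 1 and with 3 of 4 in pup 3. Pdha1, the catalytic subunit of the decarboxylase, had 229.9 TPM in pup 1 and 234.3 TPM in pup 3. Its partner Pdhb had 200.2 TPM in pup 1 and 344.8 TPM in pup 3. Dld, the dehydrogenase that the complex shares with the oxoglutarate dehydrogenase complex, had 92.9 TPM in pup 1 and 147.3 TPM in pup 3. Dlat, the acetyltransferase core, had 2268 counts (40.3 TPM) in pup 1 and 0 counts in pup 3. The partner protein Pdhx, which binds Dld to that core, was detected in both pups with 75.8 TPM in pup 1 and 29.4 TPM in pup 3.

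Of the kinases that switch the complex off, none kept the lead in both pups. Pdk2 had 2089 counts (59.7 TPM) in pup 1 and 0 counts in pup 3. Pdk1 had 12.2 TPM in pup 1 and 41.5 TPM in pup 3, but protein-coding transcripts carried only 0.900% of that in pup 1 and 2.07% in pup 3. Pdk3, and Pdk4 outside the 43 enzymes, had 0 counts in both pups. Pdk2 was 4.89-fold higher than Pdk1 in pup 1, and in pup 3 Pdk1 was 264-fold higher than Pdk2 by the floor of 3 counts. The deposited TPM interval of Pdk2 in pup 3 reaches 0.730 TPM, above that floor (0.157 TPM). On protein-coding transcripts alone, Pdk2 had 59.7 TPM and Pdk1 0.11 TPM in pup 1, and Pdk2 had 0 TPM and Pdk1 0.86 TPM in pup 3, so in pup 3 neither reached the detection limit. Of the phosphatases that reverse the kinases, Pdp2 had 26.5 TPM in pup 1 and 10.9 TPM in pup 3, and Pdp1 0.75 TPM in pup 1 and 12.7 TPM in pup 3, over 4-fold higher in pup 3.

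In the TCA cycle 10 of the 11 members were detected in both pups. Citrate synthase (Cs), which takes acetyl-CoA into the cycle, had 350.7 TPM in pup 1 and 369.6 TPM in pup 3. The NAD-dependent isocitrate dehydrogenase had its regulatory subunit Idh3g at 263.5 TPM in pup 1 and 426.8 TPM in pup 3, Idh3b at 170.9 TPM in pup 1 and 232.2 TPM in pup 3, and the catalytic Idh3a at 186.5 TPM in pup 1 and 155.4 TPM in pup 3. Idh3g was the highest of the 3 subunits in both pups by gene-level TPM, with 69.3% of it on protein-coding transcripts in pup 1 and 63.8% in pup 3. On those transcripts alone Idh3g was highest in pup 3 (Idh3g 272.4 TPM, Idh3b 196.7 TPM, Idh3a 155.4 TPM) but not in pup 1 (Idh3g 182.6 TPM, Idh3b 164.2 TPM, Idh3a 186.5 TPM). Ogdh, the first enzyme of the oxoglutarate dehydrogenase complex, had 275.7 TPM in pup 1 and 193.4 TPM in pup 3, and its core Dlst had 95.5 TPM in pup 1 and 65.4 TPM in pup 3. Protein-coding transcripts carried 79.6% of Ogdh TPM in pup 1 and 55.9% in pup 3.

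Succinate-CoA ligase pairs the common subunit Suclg1 with either an ATP-forming (Sucla2) or a GTP-forming (Suclg2) partner. Suclg1 had 121.6 TPM in pup 1 and 110.7 TPM in pup 3. Sucla2, the form known to prevail in brain, had 140.3 TPM in pup 1 and 69.8 TPM in pup 3. Suclg2 had 23 counts (0.65 TPM) in pup 1 and 1592 counts (32.1 TPM) in pup 3. Sucla2 exceeded Suclg2 in both pups, 215.8-fold in pup 1 and 2.18-fold in pup 3. Fumarase (Fh1) had 204.1 TPM in pup 1 and 294.3 TPM in pup 3. A coding transcript of 542 bases held 39.2% of Fh1 TPM in pup 1 and 40.9% in pup 3. Mitochondrial malate dehydrogenase (Mdh2), the most abundant TCA member, had 724 TPM in pup 1 and 689 TPM in pup 3. Succinate dehydrogenase, outside the 43 enzymes, had its 4 subunits detected in both pups, led by Sdhb with 448.5 TPM in pup 1 and 684 TPM in pup 3. Sdhd had 305.5 TPM in pup 1 and 437.8 TPM in pup 3, Sdhc 269.7 TPM in pup 1 and 352.2 TPM in pup 3, and Sdha 282.8 TPM in pup 1 and 204.7 TPM in pup 3.

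Cytosolic and mitochondrial forms of the enzymes around the cycle differed in which one led. Cytosolic Idh1, a source of NADPH, had 198.5 TPM in pup 1 and 406.5 TPM in pup 3, against 93.2 TPM in pup 1 and 39.9 TPM in pup 3 for mitochondrial Idh2, a ratio of 2.13 in pup 1 and 10.2 in pup 3. Protein-coding transcripts carried 64.3% of Idh2 TPM in pup 1 and 87.4% in pup 3. On protein-coding transcripts alone the log2 ratio of Idh1 over Idh2 was 1.73 in pup 1 and 3.54 in pup 3. Over all transcripts it was 1.09 in pup 1 and 3.35 in pup 3. In the malate-aspartate shuttle, which carries reducing equivalents from cytosol to mitochondrion, cytosolic Got1 had 189.7 TPM in pup 1 and 151.2 TPM in pup 3. Mitochondrial Got2 had 135.2 TPM in pup 1 and 38.6 TPM in pup 3. Got1 exceeded Got2 1.40-fold in pup 1 and 3.91-fold in pup 3. Cytosolic Mdh1 had 587 TPM in pup 1 and 619 TPM in pup 3, and here the mitochondrial form led, Mdh2 being 1.23-fold higher in pup 1 and 1.11-fold higher in pup 3. A coding transcript of 549 bases held 44.1% of Mdh1 TPM in pup 1 and 43.8% in pup 3, and without transcripts under 1000 bases the mean log2 ratio of Mdh1 over Mdh2 was -1.21, against -0.23 ± 0.11 (SD, n = 2) over all transcripts. Pyruvate carboxylase (Pcx), which refills the cycle in astrocytes, had 31.0 TPM in pup 1 and 15.8 TPM in pup 3, all of it on a transcript of 4125 bases in pup 1 and all on one of 4148 bases in pup 3. The shuttle carriers Slc25a11 and Slc25a12 were detected in both pups (Slc25a11 156.7 TPM in pup 1, 216.4 TPM in pup 3; Slc25a12 161.9 TPM in pup 1, 103.8 TPM in pup 3), whereas Slc25a13 stayed under 1 TPM, with 22 counts in pup 1 and 0 in pup 3.

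Across the 14 isoenzyme pairs, 10 had the same gene on top in both pups with deposited TPM intervals that did not overlap in either pup. These were Hk1 over Hk2, Aldoa over Aldoc, Eno1 over Eno2, Ldha over Ldhb, Pfkp over Pfkl, Pfkp over Pfkm, Idh1 over Idh2, Mdh2 over Mdh1, Got1 over Got2 and Sucla2 over Suclg2. The mean log2 ratio of Pfkp over Pfkl was 2.03 ± 1.05 (0.68 on protein-coding transcripts alone), that of Idh1 over Idh2 2.22 ± 1.60, that of Got1 over Got2 1.23 ± 1.05 and that of Sucla2 over Suclg2 4.44 ± 4.69 (SD, n = 2 each). For Pfkl and Pfkm the intervals overlapped in pup 1, for Pfkfb3 and Pfkfb2 and for Pdk2 and Pdk1 the pups went opposite ways, and Pdk2 and Pdk3 were both at 0 counts in pup 3. The coding sequences within a pair were 58.3% to 75.9% identical, below the 95% used to define near-identical copies.

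**Figure D3:**
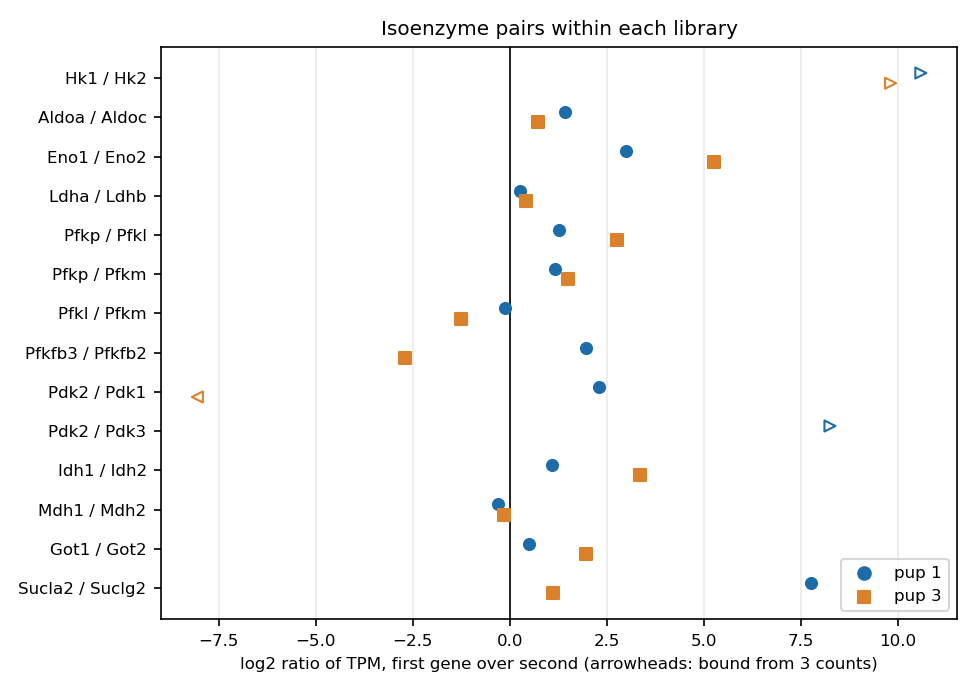
The log2 ratio of TPM of the first over the second gene of each of 14 isoenzyme pairs, in pup 1 (circles) and pup 3 (squares), with arrowheads where a gene had 0 counts and the ratio is a bound from 3 counts. Points on the same side of 0 in both pups have the same gene on top, as for Ldha over Ldhb at 0.25 in pup 1 and 0.41 in pup 3, and Pfkfb3 over Pfkfb2 lies on opposite sides.

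Summed over its 15 members, glycolysis had 6701 TPM in pup 1 and 5508 TPM in pup 3, against 2534 TPM in pup 1 and 2639 TPM in pup 3 for the 11 TCA members. The ratio of glycolysis to TCA was 2.64 in pup 1 and 2.09 in pup 3, a mean of 2.37 ± 0.39 (SD, n = 2). The size of this ratio depended on how the pathways were summed. The ratio of the median members was 1.65 in pup 1 and 1.61 in pup 3, and the ratio of the median steps, with isoenzymes of a step added and subunits of a complex averaged, was 1.91 in pup 1 and 1.69 in pup 3. It was above 1 in both pups by each of these measures. With Sdha to Sdhd added to the TCA sum, the mean ratio was 1.51.

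Of the 10 glycolytic steps, aldolase (1732 TPM in pup 1 and 826 TPM in pup 3), GAPDH (1109 TPM in pup 1 and 1464 TPM in pup 3), enolase (1316 TPM in pup 1 and 883 TPM in pup 3) and pyruvate kinase (901 TPM in pup 1 and 557 TPM in pup 3) were the 4 highest in both pups. Phosphoglycerate kinase was the lowest in pup 1 at 106.2 TPM, followed by hexokinase at 126.1 TPM, and hexokinase was the lowest in pup 3 at 52.6 TPM, followed by phosphoglycerate kinase at 153.6 TPM. Of the TCA steps among the 43 enzymes, malate dehydrogenase was the highest in both pups. Succinate-CoA ligase was the lowest in both by gene-level TPM (131.3 TPM in pup 1, 106.3 TPM in pup 3). On protein-coding transcripts alone, Ogdh had 108.1 TPM and Dlst 65.4 TPM in pup 3. Their mean, the oxoglutarate dehydrogenase step, was then below succinate-CoA ligase in that pup. At the pyruvate branch, the summed lactate dehydrogenase subunits had 1289 TPM in pup 1 and 1292 TPM in pup 3. The mean of the pyruvate dehydrogenase subunits was 140.8 TPM in pup 1 and 181.6 TPM in pup 3, a ratio of 9.15 in pup 1 and 7.11 in pup 3. That mean includes Dlat, at 40.3 TPM in pup 1 and 0 TPM in pup 3, which lowers it and raises the ratio. All these ratios are of RNA, and enzyme amount and flux were not measured.

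**Figure D4:**
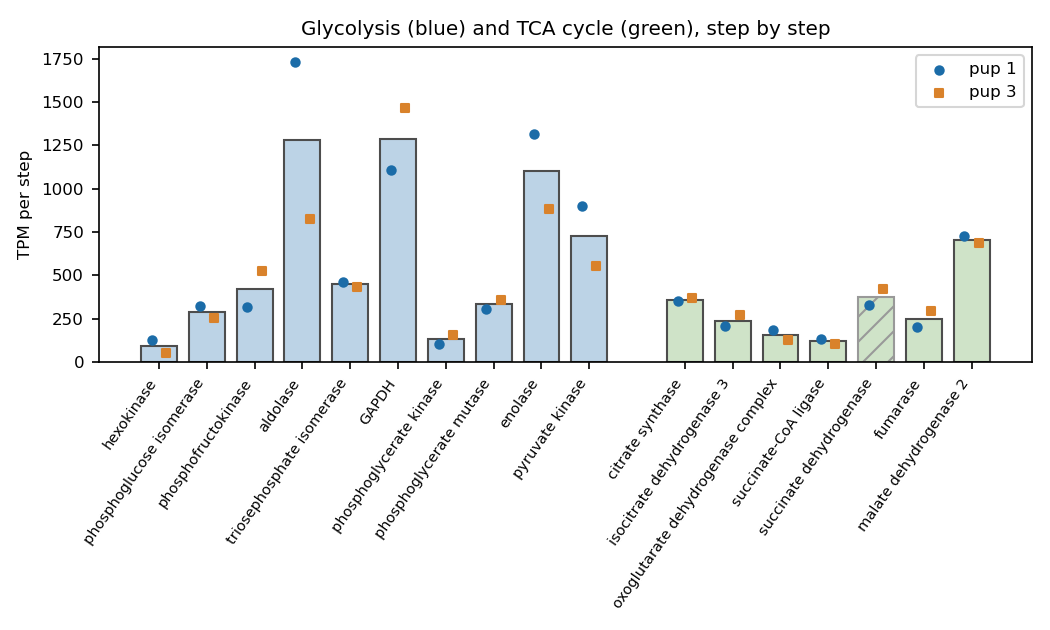
TPM of the steps of glycolysis (blue) and of steps of the TCA cycle (green), as the mean of both pups (bars) with pup 1 (circles) and pup 3 (squares). The hatched step, succinate dehydrogenase, is not among the 43 enzymes. Aldolase, GAPDH, enolase and pyruvate kinase are the highest glycolytic steps in both pups.

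A gene was listed as differing between the libraries when the whole exact 95% interval of its scaled count ratio lay beyond 4-fold, which compares 2 libraries and covers counting error only. Of the 43 enzymes, 41 of them detected in at least 1 library, 5 were listed, where the same rule listed 46.5% of the 12144 genes detected in at least 1 library. Those higher in pup 1 were Eno2, Pfkfb3, Dlat and Pdk2, where 25.9% of detected genes were listed in that direction, and higher in pup 3 was Suclg2, where 20.5% were. Pfkfb3 was 24.3-fold higher in pup 1 (95% interval 20.8 to 28.4). Dlat and Pdk2 were 941-fold and 867-fold higher in pup 1 with the 0 counts of pup 3 taken as 3. These folds are not strict lower bounds, as the exact 95% intervals reach down to 765-fold for Dlat and 704-fold for Pdk2. The deposited TPM intervals in pup 3 reach 0.891 TPM for Dlat and 0.730 TPM for Pdk2, above the floor of 3 counts. Suclg2 was 55.6-fold higher in pup 3 (36.9 to 88.0). Just outside the rule was Pdk1, 4.21-fold higher in pup 3 with an interval of 3.72 to 4.76, followed by Got2, 3.10-fold higher in pup 1.

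None of the 27 enzymes at a mean TPM of 100 or more was listed, where the rule listed 4.02% of the 1667 genes at that level. The 5 listed enzymes had means of 16.4 to 84.5 TPM. The median size of the log2 count ratio between pups was 0.41 over these 27 enzymes and 0.61 over all genes at that level, and 0.53 over the 39 enzymes with counts in both pups against 1.03 over 8293 such genes. Pearson's r of log2(TPM + 1) between the pups, across genes, was 0.85 for the 27 enzymes and 0.70 for all genes at that level. The sets were not matched for level. The median of the mean TPM was 302.5 for the 27 enzymes and 196.2 for all genes at 100 TPM or more. It was 201.5 for the enzymes and 19.8 for all genes detected in at least 1 library. Whether the closer values go with the higher level was not tested. Scaled to total gene counts, 18 enzymes were higher in pup 1 and 21 lower, and with edgeR's TMM factors 21 were higher and 18 lower (22 and 17 with DESeq2's size factors). TMM shifted the median log2 ratio of all genes by 0.19 and DESeq2's size factors by 0.20, and the number of enzymes listed was 5 under each scaling.

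**Figure D5:**
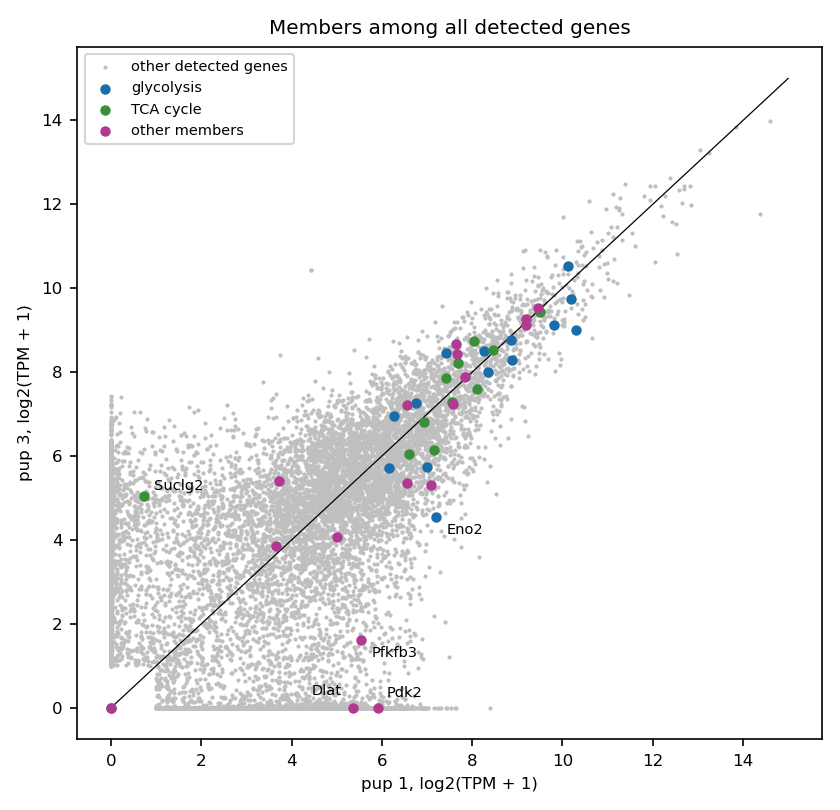
Level in pup 1 (horizontal) against pup 3 (vertical) as log2(TPM + 1) for all genes detected in at least 1 library (grey) and the 43 enzymes (coloured by role), with equality as a line. The 5 enzymes over 4-fold apart are named, and all of them lie below a mean of 100 TPM.

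For 32 enzymes with several transcripts and at least 50 counts in each pup, the leading transcript was the same in 24 and differed in 8. The 8 were Pfkm, Pfkp, Eno2, Pfkfb2, Pfkfb3, Ogdh, Sucla2 and Pcx, and for Pfkm and Sucla2 both leaders have the same coding sequence. By estimated counts in place of TPM, 25 had the same leader.

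Of 49 further genes of the same pathways, 25 were detected in both pups, 3 in pup 1 alone, 2 in pup 3 alone and 19 in neither. The 13 other isoenzymes made up most of the last group, with 12 in neither pup and 9 at 0 counts in both, Pdha2 among them. The only one detected was the sperm form Gapdhs (1.49 TPM in pup 1, 0 in pup 3). Glucose transporters were represented by neuronal Slc2a3 (69.2 TPM in pup 1, 40.4 TPM in pup 3) and by Slc2a1 of the blood-brain barrier and glia (22.1 TPM in pup 1, 65.0 TPM in pup 3). All 3 genes of ketone use were detected in both, led by Oxct1, the enzyme that activates ketone bodies, at 184.2 TPM in pup 1 and 506.8 TPM in pup 3, with Acat1 at 143.8 TPM in pup 1 and 91.0 TPM in pup 3 and Bdh1 at 56.6 TPM in pup 1 and 91.9 TPM in pup 3. By scaled counts Oxct1 was 1.46-fold and Bdh1 1.04-fold higher in pup 3, and Acat1 1.42-fold higher in pup 1. Each of these differences was smaller than in TPM.

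The pentose phosphate pathway, which makes NADPH and ribose, had all 5 genes detected in both pups. Pgls had 251.0 TPM in pup 1 and 253.5 TPM in pup 3. Taldo1 had 164.6 TPM in pup 1 and 218.2 TPM in pup 3. Tkt had 188.4 TPM in pup 1 and 51.6 TPM in pup 3, a difference of under 4-fold in TPM. Tkt passed the 4-fold rule by scaled counts, 5.55-fold higher in pup 1 (exact interval 5.29 to 5.82, counting error only). Of gluconeogenesis, G6pc3 (27.6 TPM in pup 1 and 32.5 TPM in pup 3) was detected in both, Pck2 in pup 1 alone (16.5 TPM, 0 counts in pup 3), and Pck1, Fbp1 and Fbp2 in neither. Acly, which cleaves citrate to acetyl-CoA in the cytosol, had 150.9 TPM in pup 1 and 108.6 TPM in pup 3, and the citrate carrier Slc25a1 62.7 TPM in pup 1 and 22.5 TPM in pup 3. Malic enzymes Me1 (90.0 TPM in pup 1 and 0.15 TPM in pup 3) and Me3 (44.5 TPM in pup 1 and 3.98 TPM in pup 3) were over 4-fold higher in pup 1. Among the 49 genes, 6 passed the 4-fold rule with pup 1 higher, the low-count Slc25a13 included, and 2 with pup 3 higher. The rule listed 25.9% of all detected genes with pup 1 higher and 20.5% with pup 3 higher. Those shares are over genes detected in at least 1 library, whereas 19 of the 49 genes, Slc25a13 among them, were detected in neither. The counts and the shares are therefore not over like sets.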

How the data were processed

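Members, lists and pairs were chosen with earlier results of these data known. Per the file headers, deposited expected counts are estimates per gene and transcript that divide shared reads, and they were rounded for counting intervals. The deposited TPM values are scaled to the same total over every row, including spike-ins and tRNA, and deposited FPKM values and posterior means served in alternatives. The deposited bounds of the TPM interval are treated as a signal and belong to the posterior mean. The deposited posterior standard deviation is a score in counts. Transcript shares are the percent of each gene's TPM, as deposited. Per the deposited metadata, the tables use mm10 with GENCODE M4. Not given in the sources used here: aligner, counting program and use of strand.

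Symbols, coordinates, transcript types and sequences came from GENCODE M21 on GRCm38. Near-identical copies were found with BLAST 2.17.0 (at least 95% identity over 200 bases). A fold against 0 counts used a floor of 3 counts and is a lower bound only if the gene lies under that floor. Intervals are exact (Clopper-Pearson) at 95% and cover counting error only: amplified reads are not independent molecules. Counts outside mouse genes (tRNA and spike-ins) were 2.05% in pup 1 and 2.21% in pup 3 and stayed out of scaling. With 1 group of 2 pups, no p-value was computed. All 43 members are named. Of the 49 other genes, up to 3 per list by mean TPM, those over 4-fold apart and those at 0 in both are named, and a few more where a role needed them. Some listed genes, and 1 alternative that used one, are not reported here. edgeR 4.0.16 and DESeq2 1.42.0 in R 4.3.3 gave scaling factors only; other work used pandas 2.3.3, matplotlib 3.10.9, biopython 1.88, scipy 1.17.1 and numpy 2.4.6 in Python 3.11.15. Alternatives changed the detection limit, the TPM estimate, the scaling, the copies, the members summed and the pups included.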

Additional observations from a re-analysis of the deposited data

How the results depend on the processing

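The ratio of glycolysis to TCA, 2.37, moved to 1.63 with medians, 1.80 with the median over steps, 1.87 without Gapdh and 1.51 with Sdha to Sdhd added. It stayed above 1 in each alternative run, and ranged from 2.09 to 2.64 when either pup was left out. The number of enzymes over 4-fold apart was 5 under each scaling and filter tried, and 9 (6 higher in pup 1, 3 higher in pup 3) with a 2-fold limit. Detection in both pups ranged from 36 to 39 enzymes over the limits tried, and from 39 to 40 within a pup. With either pup left out 13 of 14 pairs had a side, and with both, 10 did under each measure except that leaving out the rule on intervals gave 11. The next 2 measures, the addition of Sdha to Sdhd and the 4-fold rule on TPM without an interval (again 5) were chosen after seeing the data. With protein-coding transcripts only, the mean log2 ratio of Pfkp over Pfkm was -0.016 against 1.34, so the pair lost its side. That of Pfkfb3 over Pfkfb2, which had no side, was 3.28 against -0.37 and gained one, and that of Pfkp over Pfkl was 0.68 against 2.03. With transcripts of 1000 bases or more, the 10 pairs stayed the same. Of 44 pair ratios recomputed under these and the other measures, 39 moved by less than the spread between pups and 5 moved more or changed sign. The Pkm M2 share ranged from 21.1% to 28.9%. No paired analysis was possible because both libraries form 1 group. With 2 pups the spread of each value is poorly known. A gene at 0 counts was taken to lie under the floor of 3 counts in that library of 13 pg. The deposited TPM intervals of the enzymes at 0 counts reach above that floor.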
